A study of Homo sapiens with 26 samples.

Results

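Vincristine (O) resistance was studied here within multiple myeloma (MM) as the contrast of 8 established human MM cell lines, out of 26 lines in the whole series. Vincristine is a vinca alkaloid that binds tubulin, blocks the assembly of microtubules and holds dividing cells in mitosis, where cells may die, slip out of mitosis or survive. Ways in which cells are known to withstand it include export by ABC transporters, altered tubulin isotypes and microtubule binding proteins, a weak mitotic checkpoint and a raised threshold for apoptosis. MM is a cancer of plasma cells, and its lines carry recurrent translocations that switch on genes such as MAF, FGFR3 with NSD2, or CCND1.

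The resistant class held KMM-1, LP-1, MOLP-8 and NCI-H929, and the sensitive class held MM1S, OPM-2, RPMI-8226 and U-266. Another 4 MM lines (AMO-1, KMS-11, KMS-12-BM, KMS-12-PE) were classed as intermediate and left out of the contrast. Of these, KMS-12-BM and KMS-12-PE are sister lines. The classes are those of the sample labels, which follow tertiles, within the disease, of AUC0, an area under the dose response curve counted only where growth stayed positive, where a high value means resistance. Expression was measured in the lines before any drug was given, on 1 array for each line, so a line is the replicate, and each line descends from a single tumour. The values are log2 values after RMA, and p-values measure the spread between lines only. KMM-1 and all 4 sensitive lines were kept in RPMI with 10% serum, LP-1 in IMDM with 10% serum, and MOLP-8 and NCI-H929 in RPMI with 20% serum. The medium is therefore partly tied to the class, and its part in the results was tested only for the serum content.

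The vincristine AUC0 of the resistant lines was 133 (95% CI: 125, 135) in KMM-1, 149 (136, 157) in MOLP-8, 149 (139, 166) in NCI-H929 and 187 (153, 237) in LP-1. In the sensitive lines it was 90 (80, 100) in MM1S, 90 (74, 99) in U-266, 95 (83, 107) in OPM-2 and 111 (102, 120) in RPMI-8226. These values set the classes and are given as a description. At the upper border KMM-1 stood beside KMS-11 with 123 (108, 127), and at the lower border RPMI-8226 stood beside KMS-12-BM with 112 (95, 118), so the intervals overlapped at both borders. LP-1 was the most resistant line and had the widest interval.

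**Figure D1:**
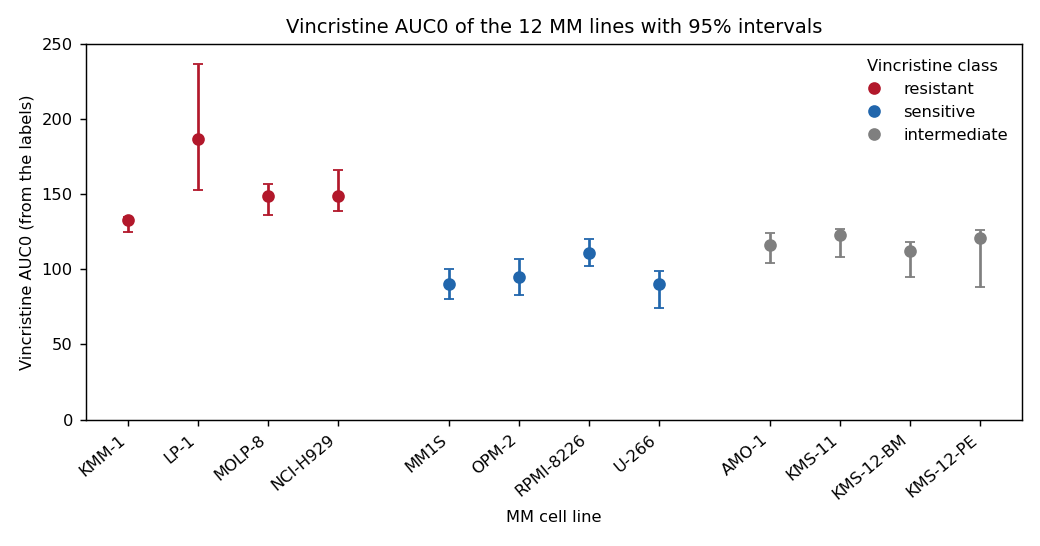
Vincristine AUC0 (y axis) of the 12 MM lines (x axis), with the 95% interval of the labels as bars and the class as colour. The resistant lines run from 133 to 187 and the sensitive lines from 90 to 111, with the intermediate lines between them at 112 to 123.

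The vincristine classes did not separate the response to the other drugs of the regimen. The AUC0 of cyclophosphamide, tested as mafosfamide, averaged 294 ± 31.6 in the resistant lines and 318 ± 58.8 in the sensitive lines (SD, n = 4 each, difference −24.2, exact permutation p = 0.514, two-sided). For doxorubicin the averages were 302 ± 39.4 in the resistant lines and 294 ± 47.2 in the sensitive lines (SD, n = 4 each, difference 7.0, exact permutation p = 0.8). Both p-values were 0.8 after adjustment over the 2 drugs, and 0.0286 was the smallest unadjusted value that 70 splits can give. Over all 12 MM lines the vincristine AUC0 had a Pearson's r of −0.184 (permutation p = 0.563) and a Spearman's rho of −0.211 (p = 0.506) with cyclophosphamide. With doxorubicin r was 0.0507 (permutation p = 0.875) and rho was 0.0842 (p = 0.795). The adjusted values over the 2 pairs were 0.875 for both r and 0.795 for both rho. Without LP-1 and MOLP-8, the lines farthest from the median, r was 0.0536 with cyclophosphamide and 0.267 with doxorubicin. MM1S was the most sensitive MM line to all 3 drugs, sharing the lowest vincristine value with U-266.

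All 8 lines had the expression of plasma cells. The mean log2 level of 12 plasma cell markers, among them SDC1 (CD138), PRDM1 and XBP1, was 10.12 to 11.91 in the resistant lines and 10.17 to 11.50 in the sensitive lines. The mean level of 10 T-cell markers was 4.93 to 5.46 in the resistant lines and 5.02 to 5.45 in the sensitive lines. Markers of mature B cells, NK cells, myeloid cells and stroma had class ranges that likewise overlapped, with list means from 4.19 to 5.94 over both classes. The 28 pairs of lines had correlations of 0.906 to 0.945 across probe-sets, which are not independent replicates, and no pair was near identical.

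No probe-set separated the classes after adjustment. Of 54613 probe-sets tested with limma, 0 (0.0%) had an adjusted p below 0.05, while 1678 (3.07%) had an unadjusted p below 0.05. Among these 844 were higher and 834 were lower in the resistant lines. The count called was 2 when dim probe-sets were left out, 1 without MOLP-8 and 8 without U-266, and 0 in each of the other settings tried. The levels of the classes did not overlap for 437 probe-sets (0.8%) that were higher and 585 (1.07%) that were lower in the resistant lines. With each gene given by its most variable probe-set, 162 of 19775 genes (0.819%) were higher and 216 (1.09%) were lower without overlap, and these shares are the background for the counts below. The median difference over all genes was −0.02 on the log2 scale. A difference of 1 or more together with classes that did not overlap was found for 65 genes that were higher and 40 that were lower in the resistant lines. All differences below are of log2 values, resistant minus sensitive, with the standard error of limma.

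KDM5B, a histone demethylase that removes methyl marks of active promoters, stood first. On its most variable probe-set it had 8.42 in NCI-H929, 8.88 in KMM-1, 8.95 in LP-1 and 10.54 in MOLP-8, against 4.29 in U-266, 4.83 in RPMI-8226, 5.29 in OPM-2 and 5.72 in MM1S. Each resistant line thus lay more than 2 units above each sensitive line (difference 4.17 ± 0.50, adjusted p = 0.377). A second KDM5B probe-set shared the smallest adjusted p of the fit, 0.0847, with a difference of 4.30 ± 0.36, and the other probe-set at that value maps to several genes. Of the 5 KDM5B probe-sets 4 did not overlap, and the fifth was dim in all lines with a difference of −0.12. Among the intermediate lines AMO-1 had 9.22, inside the resistant range, while KMS-11 had 6.11, KMS-12-BM had 5.55 and KMS-12-PE had 4.05. KMM-1, the resistant line in the medium of the sensitive lines, was at 8.88, and with the serum content as a covariate the second probe-set had a difference of 3.97 (adjusted p = 0.537). It was called in 2 of its 16 settings, without dim probe-sets (adjusted p = 0.0326) and without MOLP-8 (adjusted p = 0.00177), and it was not called with all 12 MM lines in 3 classes (adjusted p = 0.99). In lines of diffuse large B-cell lymphoma (DLBCL) classed in the same way KDM5B averaged 5.42 in 4 resistant lines and 6.30 in 4 sensitive lines, and the MM difference exceeded the DLBCL difference by 5.05 ± 1.41 (limma interaction, adjusted p = 1.0).

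CHFR encodes a ubiquitin ligase of a checkpoint that delays entry into mitosis when microtubules are disturbed. It had 8.42 in MOLP-8, 8.57 in KMM-1, 8.62 in NCI-H929 and 9.71 in LP-1, against 3.45 in U-266, 3.61 in MM1S, 6.59 in RPMI-8226 and 6.91 in OPM-2 (difference 3.69 ± 0.87, adjusted p = 1.0). The resistant lines were close to each other, while the sensitive lines split into a pair at the floor of the array and a pair in between. A second CHFR probe-set did not overlap either, with a difference of 2.57, and the third, at 5.14 to 5.70 in all 8 lines, had a difference of 0.05. KMS-11 was also at the floor with 3.66, and the other intermediate lines had 8.20 to 8.70, so a high level was not confined to resistant lines. The 4 genes of the named set with an adjusted p below 1.0 were KDM5B, PAQR4 and ZNF286A at 0.377 and HS3ST3A1 at 0.707. The other 66 named genes were at 1.0, so what follows describes levels and makes no call.

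Other genes with large positive differences had varied roles. TRIP6, a LIM domain adaptor of focal adhesions, had 9.12 in MOLP-8, 9.31 in LP-1, 9.74 in NCI-H929 and 10.26 in KMM-1, against 5.20 in OPM-2, 5.37 in U-266, 7.04 in MM1S and 7.33 in RPMI-8226 (difference 3.38 ± 0.54). Its highest levels of all were in 2 intermediate sister lines, at 10.92 in KMS-12-BM and 10.89 in KMS-12-PE. PFN2, a profilin that binds actin monomers, had 8.33 in NCI-H929, 8.42 in KMM-1, 10.09 in MOLP-8 and 10.68 in LP-1, against 5.04 in OPM-2, 5.48 in U-266, 6.25 in RPMI-8226 and 7.57 in MM1S (difference 3.29 ± 0.72). Its DLBCL difference was 2.58 ± 0.95 with class means of 8.41 in resistant and 5.82 in sensitive DLBCL lines. The junctional adhesion molecule JAM3 had 7.46 to 10.02 in the resistant lines and 5.27 to 6.65 in the sensitive lines (difference 2.75 ± 0.58), without overlap on any of its 3 probe-sets. PTPN13, a tyrosine phosphatase that binds the death receptor FAS, had 5.75 to 10.00 in the resistant lines and 4.10 to 4.88 in the sensitive lines (difference 3.13 ± 0.80), with MOLP-8 highest. A second, dimmer PTPN13 probe-set overlapped (difference 1.40). The tetraspanin TSPAN12 had a difference of 2.61, the complement-related gene CFHR4 one of 2.59, the pseudogene ANKRD20A5P one of 2.33 and the Ras-related GTPase RRAS2 one of 2.63. RRAS2 overlapped on 2 of its 3 probe-sets, and on the probe-set without overlap the highest sensitive line, MM1S at 7.97, was just below the lowest resistant line, NCI-H929 at 7.99.

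The list of actin cytoskeleton and intermediate filament genes had mostly positive differences. Of 22 members measured, 15 had a positive difference, with a median of 0.21, and PFN2 was the 1 member without overlap. The mean log2 level of the list was 9.11 to 9.38 in the resistant lines and 8.48 to 9.04 in the sensitive lines, so the list means did not overlap, on a list drawn up with earlier results of these lines known. The gap was narrow, with 9.11 in NCI-H929 and 9.04 in OPM-2. PFN2, with 8.33 in NCI-H929 and 5.04 in OPM-2, is part of these means, and the gap rests on it. The median deviation of the list members did overlap, with 0.01 to 0.21 in the resistant lines and −0.37 to 0.03 in the sensitive lines. The median difference was 0.03 without RPMI-8226, 0.10 without KMM-1 or without U-266, and −0.07 with the lines of both diseases. VIM, the intermediate filament protein vimentin, was at 13.73 to 14.09 in the resistant lines and 12.32 to 14.05 in the sensitive lines.

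**Figure D2:**
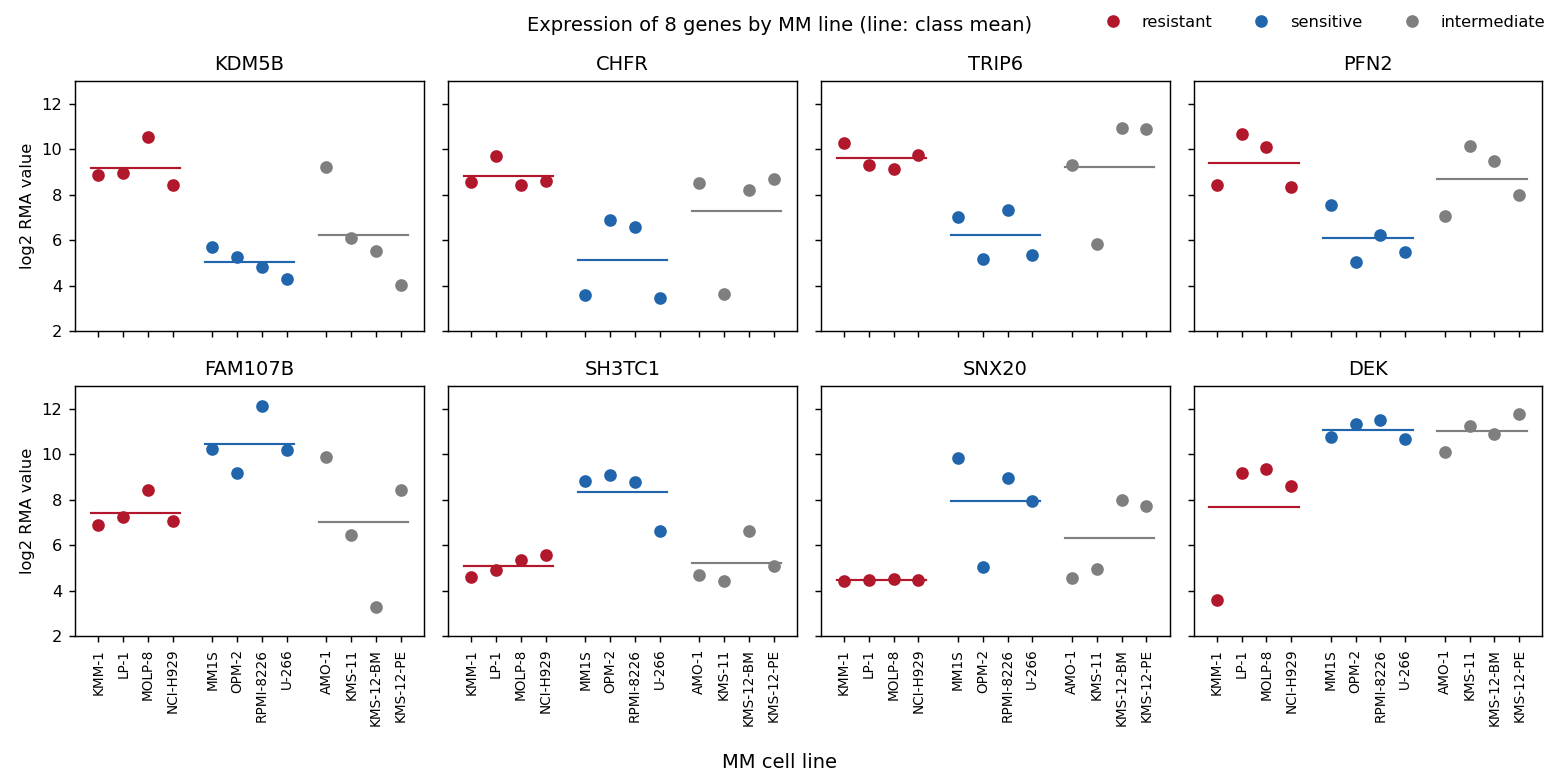
Log2 RMA value (y axis) of 8 genes in the 12 MM lines (x axis), with a horizontal line at the mean of each class. KDM5B, CHFR, TRIP6 and PFN2 are higher in every resistant line than in every sensitive line, FAM107B, SH3TC1, SNX20 and DEK are lower, and the intermediate lines spread over both ranges.

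TNFRSF10B, a death receptor for the ligand TRAIL and a p53 target, had 9.09 in LP-1, 9.12 in NCI-H929, 9.13 in KMM-1 and 9.43 in MOLP-8, against 7.06 in U-266, 7.56 in MM1S, 8.25 in OPM-2 and 8.38 in RPMI-8226 (difference 1.38 ± 0.29). It did not overlap on 3 of its 4 probe-sets, whose differences were 0.98 to 1.38. Of 18 p53 targets 10 were higher and 8 were lower in the resistant lines, with a median of 0.04, and TNFRSF10B was the 1 member without overlap.

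The genes with the largest negative differences had varied roles. SNX20, a sorting nexin of blood cells, was at the floor in all resistant lines, with 4.41 in KMM-1, 4.47 in NCI-H929, 4.49 in LP-1 and 4.52 in MOLP-8, against 5.03 in OPM-2, 7.94 in U-266, 8.96 in RPMI-8226 and 9.83 in MM1S (difference −3.47 ± 0.93). SH3TC1 had 4.60 to 5.56 in the resistant lines and 6.64 to 9.09 in the sensitive lines (difference −3.23 ± 0.54), with U-266 the lowest sensitive line. Its other probe-set overlapped, with a difference of −0.07, and so did 2 of the 3 SNX20 probe-sets, with differences of −1.75 and −0.41. FAM107B had 6.90 to 8.42 in the resistant lines and 9.18 to 12.12 in the sensitive lines on one probe-set (difference −3.02 ± 0.63), and the other gave −2.75. DEK, a chromatin protein that is abundant in dividing cells, had 3.61 in KMM-1, 8.61 in NCI-H929, 9.16 in LP-1 and 9.36 in MOLP-8, against 10.67 in U-266, 10.73 in MM1S, 11.33 in OPM-2 and 11.51 in RPMI-8226. The DEK difference of −3.38 ± 1.23 thus rested in part on KMM-1, and without that line it was −2.02. The phosphatase PTPN3 (−2.40), the kinase CDK14 (−2.02), the calcium binding protein GCA (−2.27), the regulatory subunit PIK3R3 of phosphoinositide kinase (−1.96) and CPT1A, which brings fatty acids into mitochondria (−1.91), were also lower without overlap.

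The direct targets and handlers of vincristine did not differ beyond the spread between lines. None of 17 tubulins separated the classes, 6 were higher and 11 were lower in the resistant lines, and the median was −0.11. TUBB, the main beta tubulin of these lines, had 11.91 to 13.25 in the resistant lines and 12.19 to 13.08 in the sensitive lines (difference −0.24 ± 0.33). TUBB3, the isotype most often linked to resistance to drugs that act on microtubules, had 10.28 to 11.29 in the resistant lines and 10.82 to 11.10 in the sensitive lines (difference −0.28 ± 0.23). Its other probe-set gave −0.17. Both are of the type (_x_at) whose probes may also bind similar transcripts, so the level of this isotype alone is uncertain. TUBB6 was low in both classes, with 4.23 to 6.11 in resistant and 4.34 to 6.09 in sensitive lines, and reached 9.34 in the intermediate line AMO-1.

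Of 30 microtubule binding and regulating genes, 17 were higher and 13 were lower in the resistant lines, with a median of 0.05 and no gene without overlap. MAP1B, which stabilises microtubules in neurons, had 8.12 in NCI-H929, 8.37 in KMM-1, 10.09 in LP-1 and 3.83 in MOLP-8, against 3.69 to 4.11 in the sensitive lines (difference 3.71 ± 1.18). It was thus on in 3 of 4 resistant lines and at the floor in the fourth and in every sensitive line. MAP7 showed the reverse, with 3.48 to 4.24 in the resistant lines and, in the sensitive lines, 3.56 in OPM-2, 6.23 in RPMI-8226, 7.47 in U-266 and 7.81 in MM1S (difference −2.51 ± 0.87). Both were chosen after their values were seen, as the members of their list with the largest differences in each direction. STMN1, stathmin, which destabilises microtubules, had 9.51 in LP-1, 9.97 in NCI-H929, 10.00 in MOLP-8 and 10.37 in KMM-1, against 9.95 in RPMI-8226, 10.78 in MM1S, 10.95 in OPM-2 and 11.36 in U-266 (difference −0.80 ± 0.32), so that RPMI-8226 was the only sensitive line within the resistant range. MAP4 (−0.39 ± 0.47) and MAPT (−0.18 ± 0.32) differed by less than their standard errors.

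Among 14 drug transporters and metabolising enzymes the median difference was 0.05 and none was without overlap. ABCB1, the efflux pump P-glycoprotein that exports vincristine, was near the floor in every line, with 3.55 in LP-1, 3.94 in NCI-H929, 4.05 in KMM-1 and 4.86 in MOLP-8, against 3.72 to 3.83 in the sensitive lines (difference 0.33 ± 0.26). The other ABCB1 probe-set was also at the floor in all 8 lines, with a difference of 0.09. ABCC1, another pump for vinca alkaloids, had 7.94 to 9.77 in the resistant lines and 8.41 to 8.94 in the sensitive lines (difference 0.07 ± 0.36), and ABCC10 had 6.13 to 8.91 in the resistant lines and 7.04 to 8.22 in the sensitive lines (difference 0.33 ± 0.58). LP-1 had the highest ABCC1 and NCI-H929 the highest ABCC10 level, and KMM-1 had the lowest of both. ABCG2, which was chosen after its values were seen, had 4.67 to 8.37 in the resistant lines and 6.10 to 10.37 in the sensitive lines (difference −2.22 ± 1.08).

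**Figure D3:**
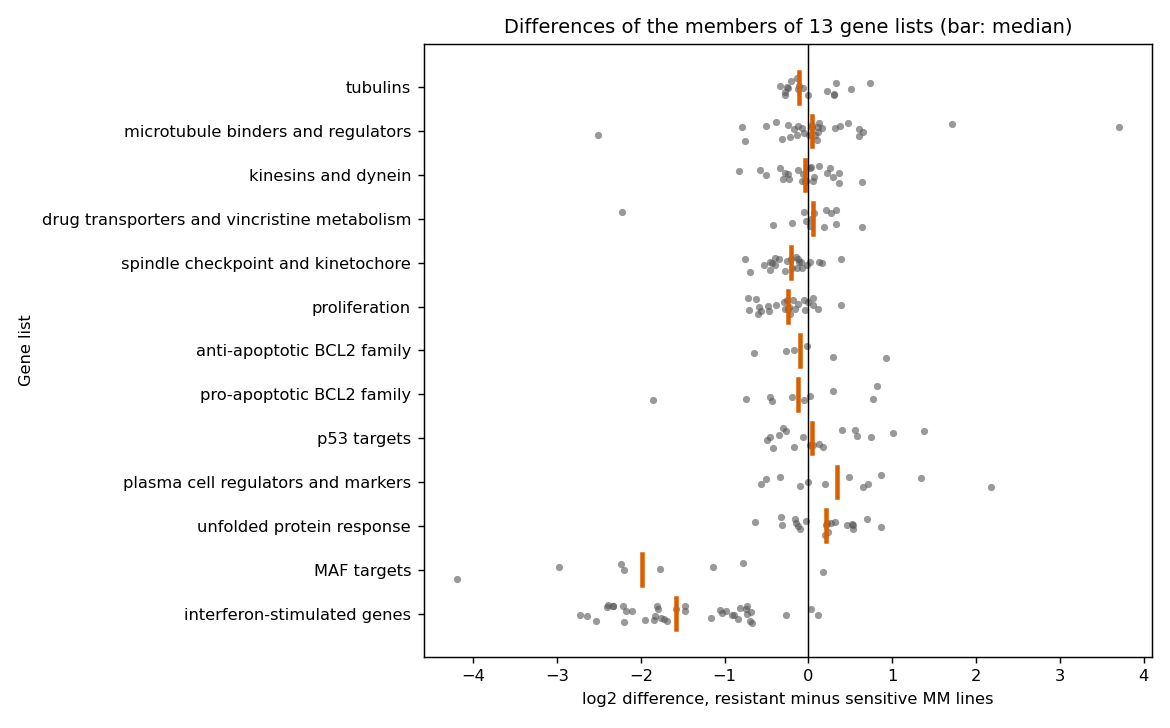
Log2 difference of each measured member (x axis, resistant minus sensitive MM lines) in 13 gene lists (y axis), with a bar at the median of the list. The medians of the tubulins (−0.11), microtubule binders (0.05) and drug transporters (0.05) lie near the median of all genes (−0.02), while those of the interferon-stimulated genes (−1.58) and MAF targets (−1.99) lie below it.

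Lists of mitosis and proliferation held more negative than positive differences, with small medians that depended on single lines. In the list of spindle checkpoint and kinetochore genes 4 of 24 were higher and 20 were lower, with a median of −0.20 that ran from −0.47 without RPMI-8226 to −0.07 without OPM-2, and ZWILCH, a kinetochore component (−0.75 ± 0.29), was the 1 member without overlap. In the list of mitotic exit 7 of 17 were higher and 10 were lower, with a median of −0.20, and its mean level overlapped, with 8.40 to 8.69 in the resistant lines and 8.07 to 9.12 in the sensitive lines. In the proliferation list 4 of 25 were higher and 21 were lower, with a median of −0.24. This median was −0.58 without RPMI-8226, −0.05 without MM1S and 0.02 with serum content as a covariate. The mean level of the proliferation list by line nevertheless overlapped, with 9.22 to 10.10 in the resistant lines and 8.82 to 10.18 in the sensitive lines, and RPMI-8226 was the lowest of the 8 lines. TK1, thymidine kinase, had 9.64 in MOLP-8, 9.77 in NCI-H929, 9.81 in LP-1 and 9.93 in KMM-1, against 10.38 in RPMI-8226, 10.40 in U-266, 10.48 in MM1S and 10.71 in OPM-2 (difference −0.71 ± 0.12), and its other probe-set gave −0.61 without overlap. CCNB2, a cyclin of mitosis, had 10.41 to 10.71 in the resistant lines and 11.04 to 11.42 in the sensitive lines (difference −0.65 ± 0.12), while its other 2 probe-sets, both dim, overlapped. DUT, which removes dUTP from the nucleotide pool (−0.75 ± 0.13), POLD3, a subunit of DNA polymerase delta (−0.77 ± 0.16), and ITGB3BP, a centromere protein (−0.87 ± 0.15), were also below every sensitive line. These 5 genes were named for their small p, and among them only TK1 is a member of the proliferation list. MKI67, the marker Ki-67, was at 7.47 to 9.99 in the resistant lines and 6.34 to 9.56 in the sensitive lines.

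The regulators of mitochondrial apoptosis showed single lines that stood apart rather than a split by class. In the anti-apoptotic BCL2 family 2 of 6 genes were higher and 4 were lower in the resistant lines, with a median of −0.10. BCL2 had 8.13 to 11.27 in the resistant lines and 9.05 to 10.70 in the sensitive lines (difference −0.27 ± 0.70). MCL1, on which many MM lines depend, had a positive difference on all 6 of its probe-sets, from 0.64 to 0.96. Its classes overlapped on each of them, since U-266 was high and KMM-1 low (on the probe-set used 6.78 in KMM-1, 8.02 in MOLP-8, 8.48 in LP-1 and 9.03 in NCI-H929, against 6.22 in RPMI-8226, 6.82 in MM1S, 7.31 in OPM-2 and 8.27 in U-266). BCL2L1 was at 10.12 in KMM-1 and at 6.69 to 7.27 in the other resistant lines, and in the sensitive lines it ran from 6.10 to 9.85. BCL2L11, the BH3-only protein BIM that starts apoptosis, was at 3.92 in LP-1 and at 9.47 to 9.80 in the other resistant lines, against 9.24 to 10.67 in the sensitive lines. LP-1, the most resistant line, was the lowest of the 8 lines on all 7 BCL2L11 probe-sets, but the gap varied. On one probe-set it had 6.87, against 8.46 to 9.53 in the other lines of the contrast. On another it had 7.18, close to the others at 7.53 to 7.90. On the probe-set with 3.92 in LP-1, the class difference was −1.86 and was not called. Its level over the 12 MM lines changed by −0.47 per 10 units of AUC0, which was not called either (limma adjusted p = 0.954). Whether this level plays a part in resistance was not tested.

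Genes that are targets of MM translocations were high in different lines of each class. Their levels are given as expression only, since no translocation was measured. FGFR3, a target of the translocation t(4;14), was at 8.68 in LP-1 and 11.95 in NCI-H929 of the resistant class and at 13.75 in OPM-2 of the sensitive class, and at 4.27 to 4.82 in the other 5 lines. NSD2, also a target of that translocation, was at 10.06 in LP-1, 10.45 in NCI-H929 and 10.91 in OPM-2, and at 6.02 to 7.91 in the others. CCND1 was high in MOLP-8 (11.95) of the resistant class and U-266 (11.71) of the sensitive class. CCND3 was highest in KMM-1 (12.94), with 7.66 to 9.36 in the other 7 lines. MAF was highest in the sensitive lines MM1S (12.03) and RPMI-8226 (12.10), with 5.34 to 10.20 in the resistant lines. MYC was at 11.01 to 13.61 in the resistant lines and at 12.69 to 13.17 in the sensitive lines other than U-266, which had 5.53.

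Of 8 targets of MAF, 7 were lower in the resistant lines, with a median of −1.99. The chemokine receptor CCR1 had 5.59 to 5.99 in the resistant lines other than NCI-H929 (10.60), against 8.18 to 12.30 in the sensitive lines (difference −4.20 ± 1.39). ITGB7, the integrin subunit beta-7, had 7.11 in KMM-1, 7.87 in MOLP-8, 12.12 in LP-1 and 13.43 in NCI-H929, against 8.55 in U-266, 12.96 in OPM-2, 13.81 in RPMI-8226 and 14.03 in MM1S (difference −2.21 ± 1.79). CX3CR1 was without overlap through small margins, with 3.66 to 3.83 in the resistant lines against 4.04 in U-266, 4.06 in OPM-2, 6.80 in MM1S and 12.09 in RPMI-8226. When MM1S and RPMI-8226, the lines of the highest MAF level, were left out, the median of the list was −0.50, so this difference rested largely on those 2 lines. This alternative was chosen after the data were seen.

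Interferon-stimulated genes were the list with the most members on one side. These genes encode antiviral and antigen-processing proteins and are switched on by interferons through the factor ISGF3, which binds the interferon-stimulated response element. Of 39 members 2 were higher and 37 were lower in the resistant lines, with a median of −1.58, and PARP9 (difference −1.81 ± 0.81) was the 1 member without overlap. The list was drawn up with earlier results of this series known.

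The element is visible in the promoters of these genes. The sequences below are stretches of the RefSeq promoters (build GRCh38.p14), read 5′ to 3′ along the gene, and show for the genes whose levels follow where the letters occur. Capitals mark matches to the pattern GAAANNGAAA on either strand, where neighbouring matches may overlap.
IFIT1 (chr10:89392505-89392544, plus strand): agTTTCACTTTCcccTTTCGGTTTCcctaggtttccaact
ISG15 (chr1:1013375-1013414, plus strand): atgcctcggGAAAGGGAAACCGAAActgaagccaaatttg
IFI27 (chr14:94110626-94110665, plus strand): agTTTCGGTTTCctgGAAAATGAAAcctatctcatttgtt
IFI44L (chr1:78620360-78620399, plus strand): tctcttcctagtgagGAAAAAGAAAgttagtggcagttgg
MX1 (chr21:41431839-41431878, plus strand): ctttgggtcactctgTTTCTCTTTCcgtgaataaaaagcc
PARP9 (chr3:122564317-122564356, minus strand): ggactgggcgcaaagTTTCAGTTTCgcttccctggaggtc
Of the 31 members with a promoter in that table, 22 (71.0%) held the pattern in a window of 300 bases, which covers 250 bases before the gene start and the first bases after it. Of all 27305 genes with a promoter 4.38% held it. A match describes the letters of the reference and shows no binding in these lines.

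Most of the interferon difference came from 2 of the 4 sensitive lines. IFIT1, an antiviral RNA binding protein, had 3.59 to 4.07 in the resistant lines, against 3.58 in OPM-2, 4.25 in MM1S, 7.33 in U-266 and 9.66 in RPMI-8226. MX1, an antiviral GTPase, had 4.83 in KMM-1, 6.91 in MOLP-8, 7.14 in LP-1 and 8.39 in NCI-H929, against 5.91 in OPM-2, 8.10 in MM1S, 12.06 in RPMI-8226 and 12.12 in U-266. OPM-2 and MM1S thus lay near or within the resistant range, and RPMI-8226 and U-266 far above it. PARP9 had 5.24 to 5.52 in the resistant lines, against 5.54 in MM1S, 5.84 in OPM-2, 8.51 in U-266 and 9.11 in RPMI-8226, so that MM1S was only just above the resistant range. The other PARP9 probe-set overlapped, with a difference of −0.79, and MM1S and OPM-2 lay within its resistant range. ISG15, a ubiquitin-like modifier, had 6.95 to 9.51 in the resistant lines, against 7.27 in OPM-2, 7.97 in MM1S, 11.27 in U-266 and 12.45 in RPMI-8226. IFI27 had 4.45 to 8.64 in the resistant lines, against 4.59 in MM1S, 5.36 in OPM-2, 10.22 in U-266 and 12.42 in RPMI-8226, with NCI-H929 the highest resistant line of both genes. IFI44L was at 3.64 to 3.71 in the resistant lines, against 3.61 in OPM-2, 3.64 in MM1S, 6.82 in U-266 and 9.93 in RPMI-8226.

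Counted over the list, 35 of 39 members in RPMI-8226 and 29 in U-266 were 1 or more above their median over the 12 MM lines, against 10 in MM1S and 0 in OPM-2. In the resistant lines the counts were 2 in MOLP-8, 3 in KMM-1, 3 in LP-1 and 9 in NCI-H929. The median difference of the list was −0.93 without RPMI-8226, −1.16 without U-266 and −2.28 without OPM-2. Without RPMI-8226 and U-266, an alternative chosen after the data were seen, the median difference was −0.06 and 20 of 39 members were lower. In the DLBCL lines of the same fit the median of the list was −0.23. PARP9 nevertheless averaged 6.13 in the resistant and 8.81 in the sensitive DLBCL lines (difference −2.68 ± 0.85), and its known partner DTX3L had a difference of −2.52 ± 1.14.

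**Figure D4:**
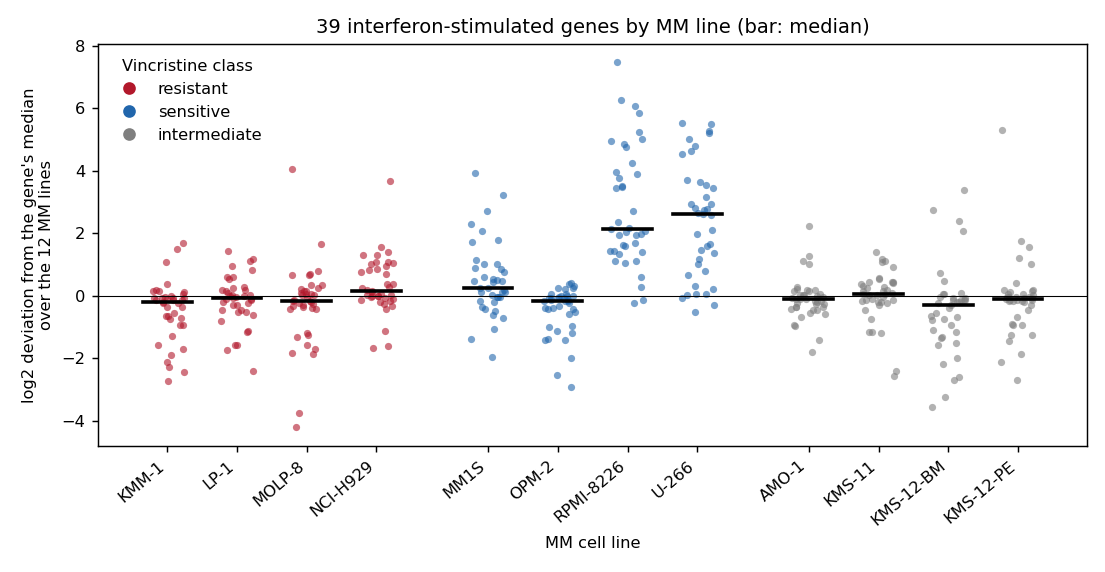
Log2 deviation of 39 interferon-stimulated genes from each gene's median over the 12 MM lines (y axis) in each line (x axis), with a bar at the median of the line. The medians are 2.12 in RPMI-8226 and 2.61 in U-266 and lie between −0.29 and 0.25 in the other 10 lines.

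Neighbouring genes differed in the same direction on parts of some chromosomes. Of the 12 named genes with the smallest p among those higher in the resistant lines, 6 (MNAT1, NAA30, JKAMP, SIX4, EIF2S1 and CGRRF1) lie on chromosome 14. This pattern was noticed after the values were seen, and the counts on chromosomes are a description. Of the 262 genes on chromosome 14 with a class mean of 7 or more, 202 had a positive difference, 15 (5.73%) were higher and 0 were lower without overlap, and the median was 0.31. On chromosome 8, 201 of 284 such genes had a positive difference, 9 were higher and 0 were lower without overlap, and the median was 0.28. Of the 8002 such genes on all chromosomes, 1.01% were higher without overlap.

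When these genes were taken in the order of the RefSeq annotation in 256 windows of 30 neighbours, the medians of the windows ran from −0.67 to 0.95. The second highest median, 0.63, was that of the window from POP1 to TAF2 on chromosome 8. There 30 of 30 genes had a positive difference and 2 were higher without overlap. The highest was the window from DDHD1 to HIF1A on chromosome 14, where 28 of 30 genes had a positive difference and 11 did not overlap, and no other window held 4 or more such genes. MNAT1, which assembles the kinase that activates cyclin-dependent kinases, had 8.40 in MOLP-8, 8.85 in LP-1, 9.06 in NCI-H929 and 9.51 in KMM-1, against 7.02 in MM1S, 7.16 in U-266, 7.53 in RPMI-8226 and 7.86 in OPM-2 (difference 1.56 ± 0.28). NAA30, the catalytic subunit of an N-terminal acetyltransferase, had 8.33 to 9.01 in the resistant lines and 6.91 to 7.88 in the sensitive lines (difference 1.46 ± 0.25). Of the 4 NAA30 probe-sets only this 1 did not overlap, and the others had differences of −0.03, 0.16 and 1.18. EIF2S1, the alpha subunit of the initiation factor of translation, lies further along the chromosome and had 9.16 to 9.99 in the resistant lines and 8.11 to 8.67 in the sensitive lines (difference 1.04 ± 0.21). In DLBCL the differences of these genes were 0.28, −0.08 and −0.20.

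By line, the genes of this window had a median deviation from their median over the MM lines of 0.85 in KMM-1, 0.58 in MOLP-8, 0.25 in LP-1 and 0.19 in NCI-H929, against −0.55 in MM1S, −0.49 in RPMI-8226, −0.48 in U-266 and −0.07 in OPM-2. Among the intermediate lines it was low in KMS-11 (−0.38) and KMS-12-PE (−0.56), while KMS-12-BM (0.17) and AMO-1 (0.22) were at the level of LP-1 and NCI-H929. The proteasome subunit PSMC6 (difference 0.62 ± 0.20), on the same chromosome, was 1 of 2 members of the proteasome list that were higher without overlap, while PSMD14 (−0.59 ± 0.26) was lower without overlap, 14 of 23 members were lower and the median of that list was −0.02.

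**Figure D5:**
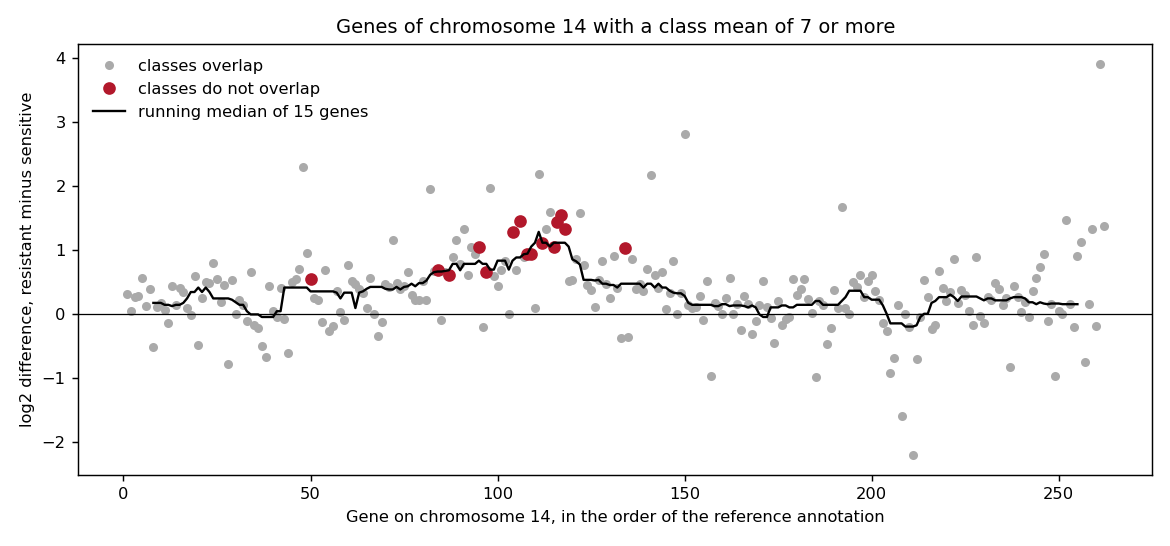
Log2 difference (y axis, resistant minus sensitive MM lines) of 262 genes of chromosome 14 in the order of the reference (x axis), with genes whose classes do not overlap in colour and a running median of 15 genes. The genes without overlap are all above 0 and lie between positions 50 and 134 of the order.

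At the other end of the scale, genes at the end of chromosome 1 were lower in the resistant lines. From AGT to PGBD2, the last 40 genes with a class mean of 7 or more, 37 had a negative difference, 0 were higher and 5 were lower without overlap, and the median was −0.66. The zinc finger gene ZNF672 had 7.53 to 8.03 in the resistant lines and 8.53 to 9.11 in the sensitive lines (difference −1.17 ± 0.18). Its neighbour SH3BP5L had 7.10 to 7.51 in the resistant lines and 7.93 to 8.35 in the sensitive lines (difference −0.76 ± 0.14), and EXOC8, a subunit of the exocyst that tethers secretory vesicles, had a difference of −0.83 ± 0.14. LP-1 was the lowest line over these genes, with a median deviation of −0.96 from the median over the 12 MM lines. The intermediate line AMO-1 followed with −0.50, and then NCI-H929 with −0.31. KMM-1 (−0.08) and MOLP-8 (0.04) lay near the sensitive lines, which had 0.08 to 0.30. The other intermediate lines had 0.00 in KMS-11, 0.05 in KMS-12-BM and 0.39 in KMS-12-PE. KDM5B also lies on chromosome 1 but before this group, and its difference had the other sign.

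No probe-set followed AUC0 as a continuous measure over the 12 MM lines after adjustment in limma (0 of 54613, 0.0%, smallest adjusted p = 0.786), while 2546 had an unadjusted p below 0.05. Leaving out KMS-12-PE, the sister line of KMS-12-BM, also gave 0 called probe-sets. The slope of KDM5B was 0.55 per 10 units of AUC0 and that of CHFR was 0.54, with adjusted p-values of 0.954 and 0.982. The difference between MM and DLBCL lines in the effect of the class was likewise called for 0 of 54613 probe-sets (0.0%, smallest adjusted p = 0.13), with 1916 at an unadjusted p below 0.05. Of the 45 named genes without overlap in MM, 31 had a DLBCL difference within 0.5 of 0. A further 10 differed by more than 0.5 in the same direction in DLBCL, with PFN2 and PARP9 the largest, and 4 differed by more than 0.5 in the opposite direction (KDM5B, CHFR, RRAS2 and SH3TC1). Most DLBCL lines of each vincristine class also had the same class for doxorubicin, so the responses to these drugs cannot be told apart there. For SH3TC1 the difference was −3.23 in MM and 0.94 (SE 1.0) in DLBCL, and for TNFRSF10B it was 1.38 in MM and −0.25 ± 0.48 in DLBCL.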

How the data were processed

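Untreated cells of each line were profiled on HG-U133 Plus 2.0 arrays. According to the deposited labels, the authors normalised the arrays with RMA (affy, R 3.0.1) and deposited log2 values, 1 array for each line. RMA fits all arrays together. Low levels are compressed in its values, so values near the floor carry little information. Depth has no counterpart on arrays, and the number of lines limits the precision. The labels give no scan date or other batch. AUC0 and its interval were taken from the labels.

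From the 54675 probe-sets 62 controls were dropped. The classes were compared with limma 3.58.1 (R 4.3.3, lmFit and eBayes) over 54613 probe-sets, with Benjamini-Hochberg adjustment and a threshold of 0.05. Of these probe-sets 41091 had 1 gene symbol in the platform annotation, 1801 had several and 11721 had none. Each of 19775 genes was represented by the probe-set that varied most (SD) among the 12 MM lines. Further fits used AUC0 as a slope over 12 lines, or 16 lines of both diseases with an interaction. Classes were said not to overlap where every resistant line lay above, or below, every sensitive line. AUC0 was compared with exact permutation tests, and its correlations with 100000 permutations, in Python 3.11.15 with scipy 1.17.1. The limma script was tested on simulated data.

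Named genes were the 12 of smallest p in each direction, the 10 of largest difference in each direction among genes without overlap and with a class mean of 7 or more, list members without overlap and with a difference of 0.5 or more, and a fixed set of tubulin, transporter, apoptosis and myeloma genes. Genes outside this rule are named as chosen after their values were seen, or as examples of their list. The lines compared and the 32 gene lists (539 genes, 30 of them without a probe-set of 1 symbol) were chosen with earlier results of these data known. No test was therefore made on a list. Alternatives were other probe-set choices, a filter on dim probe-sets (6 or more in at least 4 lines), centred arrays, other eBayes settings, other sets of lines, serum content as a covariate, and leaving out each line.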

Additional observations from a re-analysis of the deposited data

Results flagged for a closer look

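In 15 of 146 groups of 4 lines 1 line stood apart from the other 3 by Dixon's criterion. Chance gives about 1 in 20 groups only where groups are independent and not selected. These groups share the same lines and include genes chosen for their values and targets of translocations, so the count cannot be judged by that rate. LP-1 was the highest resistant line for CHFR (9.71, others 8.42 to 8.62) and the lowest for BCL2L11 (3.92, others 9.47 to 9.80), for the plasma cell marker SDC1 (9.48, others 12.17 to 12.47) and for the proteasome subunit PSMD14 (10.20, others 11.15 to 11.33). KMM-1 was the lowest resistant line for DEK (3.61, others 8.61 to 9.36) and CPT1A (5.78, others 8.33 to 8.66) and the highest for BCL2L1 (10.12, others 6.69 to 7.27). MOLP-8 was the highest resistant line for ZNF672 (8.03, others 7.53 to 7.60) and TNFRSF10B (9.43, others 9.09 to 9.13) and the lowest for PARP9 (5.24, others 5.50 to 5.52). NCI-H929 was the highest resistant line for PTPN3 (5.71, others 4.84 to 4.98).

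Among the sensitive lines, U-266 was the lowest for SH3TC1 (6.64, others 8.77 to 9.09) and for MYC (5.53, others 12.69 to 13.17). OPM-2 was the highest for FGFR3 (13.75, others 4.27 to 4.82) and for MAPT (6.88, others 5.49 to 5.66).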

How the results depend on the processing

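The contrast called 0 probe-sets, 2 when dim probe-sets were left out and 0 to 8 over the fits that left out 1 line each (1 without MOLP-8, 8 without U-266), and the cause was not tested. None of the 45 named genes without overlap changed sign in any setting. For the fits without 1 line this was fixed in advance, since leaving out a line cannot reverse classes that do not overlap. Settings that change only the filter or the estimate of the variance keep the same difference, so they could not reverse it either. SH3TC1 was called without U-266, its lowest sensitive line (−3.79, limma adjusted p = 0.0168). Without 1 line each, the doxorubicin AUC0 difference ran from −15.5 to 23.2, and it was −7.83 without KMM-1. The cyclophosphamide correlation was 0.0536 without LP-1 and MOLP-8. Changes of sign were found for 18 other named genes, none of them called. With serum content as a covariate the values were ABCC10 −0.22, TUBB 0.24, MAP4 0.25, BCL2L1 0.35, FGFR3 −0.21, CCND2 0.30 and MAF 0.34. With 16 lines of both diseases they were ABCC10 −0.03, TUBB6 0.13 and PRDM1 −0.21. With another probe-set MAPT was 0.11, MAP4 0.01 and FGFR3 −0.62. Over the fits without 1 line the differences ran from −0.25 to 0.35 for ABCC1, −0.04 to 0.88 for ABCC10, −0.31 to 0.78 for TUBB2A, −0.53 to 0.23 for TUBB6, −0.07 to 0.79 for TUBA1A, −0.32 to 0.15 for MAPT and −0.72 to 0.04 for MAP4. They ran from −0.88 to 0.17 for BCL2, −1.01 to 2.80 for FGFR3, −1.90 to 1.48 for CCND1, −0.11 to 1.65 for CCND3, −2.44 to 0.57 for MAF, −0.20 to 2.35 for MYC and −0.84 to 0.20 for SDC1. No paired analysis was possible because nothing in the labels links a resistant line to a sensitive line. With 4 lines in a class and tests over all probe-sets, a miss does not show that classes are alike.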

Other observations

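FAF1, a FAS-associated factor, and SCRN1, secernin, separated all resistant lines from 3 of the 4 sensitive lines, and were chosen after their values were seen. FAF1 had 9.45 in LP-1, 9.81 in NCI-H929, 9.89 in MOLP-8 and 9.94 in KMM-1, against 4.16 in RPMI-8226, 4.28 in OPM-2, 5.18 in MM1S and 10.22 in U-266 (difference 3.81 ± 1.28). U-266 was thus above every resistant line, and the intermediate lines had 8.91 to 9.71. SCRN1 had 8.68 in LP-1, 8.79 in NCI-H929, 9.17 in MOLP-8 and 9.48 in KMM-1, against 3.91 in OPM-2, 4.48 in RPMI-8226, 4.72 in MM1S and 11.21 in U-266. Among the intermediate lines SCRN1 had 5.74 in KMS-11, 7.08 in AMO-1, 9.77 in KMS-12-BM and 9.95 in KMS-12-PE. Without U-266, 3 FAF1 probe-sets and SCRN1 had an adjusted p of 0.00829 in limma, against 1.0 with that line. Both genes were chosen for parting every line but U-266, so leaving that line out had to favour them. These p-values are therefore no support for a class difference.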
